A study of Mus musculus with 10 samples.

Results

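Mouse chromosome 8 is represented here by 550 genes. They are the protein-coding genes placed on chromosome 8 in GRCm38 by the GENCODE M21 annotation that averaged at least 8 CPM (counts scaled to library size) over the 10 libraries. They were taken from 875 protein-coding genes of that chromosome in a count table of 26401 genes. The chromosome was chosen because its genes were lower in one group of libraries than in the other, so the difference between the groups is given below as a description that supports nothing. The results with a test concern what the choice did not use, which is the evenness of the shift along the chromosome and the genes that left it.

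The libraries hold polyadenylated RNA of 10 populations of immortalized embryonic fibroblasts, which are cultured connective tissue cells. All 10 had the same genotype, the point mutation m.5024C>T in mitochondrial DNA, and the label C57Bl/6N, and were grown in high-glucose medium with serum and uridine. In 5 populations the mutant share of mitochondrial genomes (heteroplasmy) was labelled high, and in 5 it was labelled low. Each population gave 1 library and is a clone of its own by the sample descriptions, and the clones are named below as high 1 to high 5 and low 1 to low 5. Nothing in the labels says how the clones were derived or immortalized, so a difference between groups here is a difference between 5 and 5 clones, and heteroplasmy and clonal history cannot be told apart.

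The RNA output of a chromosome follows, to a first approximation, the number of copies of it that a cell carries, because most genes have no feedback that restores their level when a copy is gained or lost. Cultured mouse fibroblasts that have been immortalized often gain or lose whole chromosomes or parts of them. A gene whose RNA does not move with its neighbours is said to escape the dosage of its chromosome, either because it is buffered or because it is regulated on its own. DNA copy number was not measured in the files used here, so fewer copies and less RNA per copy cannot be told apart below.

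The promoters of the chromosome 8 genes resembled those of expressed genes elsewhere. RefSeq promoters (GRCm38.p6, 250 bases before to 50 bases after the start) were matched for 389 of the 550 genes. Their median GC content was 62.3%, against 62% for 7036 promoters of similarly expressed genes on the other autosomes. A ratio of observed to expected CpG of at least 0.6, typical of CpG island promoters, was found in 83.8% of the chromosome 8 promoters, in 81.0% of those on the other autosomes and in 35.8% of all 32851 RefSeq promoters. The letters GGGCGG, the core of a GC box bound by SP family factors, were searched on both strands. They stood in 72.0% of the chromosome 8 promoters, in 70.2% of those on the other autosomes and in 35.7% of all promoters. The letters TATAAA stood in 6.17%, 6.08% and 13.6% of the same sets.

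The following 3 sequences are the 250 bases before the start of Efnb2 (chr8:8661243-8661492, minus strand), Acsl1 (chr8:46470787-46471036, plus strand) and Thap11 (chr8:105854853-105855102, plus strand), each 5′ to 3′ along its gene, with GGGCGG or its reverse complement in capitals. They are shown because Efnb2 fell further than its chromosome, Acsl1 was higher on average in the high clones and Thap11 followed the chromosome most closely.
Efnb2: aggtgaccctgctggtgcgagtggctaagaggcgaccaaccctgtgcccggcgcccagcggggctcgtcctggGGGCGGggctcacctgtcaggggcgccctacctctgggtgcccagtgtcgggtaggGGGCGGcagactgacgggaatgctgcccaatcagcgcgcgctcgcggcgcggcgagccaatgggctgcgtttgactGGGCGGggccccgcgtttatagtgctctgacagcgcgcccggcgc
Acsl1: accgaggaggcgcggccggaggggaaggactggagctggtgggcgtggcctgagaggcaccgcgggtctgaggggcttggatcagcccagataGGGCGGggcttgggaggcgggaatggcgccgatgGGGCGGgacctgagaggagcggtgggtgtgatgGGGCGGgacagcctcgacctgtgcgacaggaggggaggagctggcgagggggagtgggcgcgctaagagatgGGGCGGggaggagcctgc
Thap11: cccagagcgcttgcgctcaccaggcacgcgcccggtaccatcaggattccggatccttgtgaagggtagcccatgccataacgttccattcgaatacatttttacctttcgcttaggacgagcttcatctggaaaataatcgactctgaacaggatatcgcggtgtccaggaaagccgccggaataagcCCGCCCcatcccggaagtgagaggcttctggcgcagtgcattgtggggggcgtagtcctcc

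Efnb2 had 3 matches, Acsl1 had 4 and Thap11 had 1 in these stretches, so the motif was present in all 3 genes shown. A CpG ratio of at least 0.6 was found in 85.5% of 351 promoters of genes within 0.5 log2 units of the chromosome's shift, defined below. It was found in 65.4% of 26 promoters of genes below that range and in 75% of 12 above it. Median levels of these sets were 66.5, 50.5 and 19.9 CPM, and the difference in promoters was not tested. A match is a description of letters only.

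Another 2 promoters belong to genes that interferons are known to induce. Ddx60 (chr8:61927837-61928086, plus strand), an antiviral helicase, and Bst2 (chr8:71537473-71537722, minus strand), the tetherin that holds budding virus at the cell surface, each carried 2 matches to a form of the interferon-stimulated response element, spelled GAAA, any 2 bases, GAAA. Capitals mark the matches, which overlap each other in Bst2. The motif, searched on both strands, stood in 3.34% of the chromosome 8 promoters (13 genes), 3.04% of those on the other autosomes and 3.44% of all.
Ddx60: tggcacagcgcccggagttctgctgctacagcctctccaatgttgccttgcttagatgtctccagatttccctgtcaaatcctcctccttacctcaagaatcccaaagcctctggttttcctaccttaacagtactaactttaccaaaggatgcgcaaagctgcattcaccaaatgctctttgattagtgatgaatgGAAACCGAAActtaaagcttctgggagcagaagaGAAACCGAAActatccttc
Bst2: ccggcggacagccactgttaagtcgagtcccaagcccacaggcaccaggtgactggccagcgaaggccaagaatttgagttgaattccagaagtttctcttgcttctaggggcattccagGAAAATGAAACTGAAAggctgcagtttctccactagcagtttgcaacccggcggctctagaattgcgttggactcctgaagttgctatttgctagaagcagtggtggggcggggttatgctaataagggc

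Library totals ran from 17318372 to 28208576 counts, and the 550 genes passed the expression filter in full. Fibroblast markers were high in every library (8 of 8 listed genes at 1 CPM or more), with a summed level of 8975 to 17869 CPM in the high and 10088 to 12369 CPM in the low libraries. The summed epithelial markers ran from 2.88 to 304 CPM in the high and from 3.28 to 10.9 CPM in the low libraries. Neural markers summed to 3.62 to 10.7 CPM in the high and 12.4 to 32.5 CPM in the low libraries, and one of the 3 genes in that list, Tubb3, lies on chromosome 8. Their part in the results below was not tested. The ribosomal RNA-like transcript Gm42418 stood at 40196 CPM in low 2 and 7703 CPM in low 3, against 783 to 1569 CPM in the other libraries. Values without low 2 and low 3 are given where they matter.

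The genes of chromosome 8 were lower in all 5 high clones than in all 5 low clones. For each gene the deviation of a library is its log2 CPM minus the gene's median over the 10 libraries, and the shift of a library is the median deviation of the 550 genes. The shift was -0.33, -0.18, -0.38, -0.15 and -0.50 in high 1 to high 5. It was 0.27, 0.42, 0.26, 0.19 and 0.17 in low 1 to low 5. The groups did not overlap, and the nearest clones were high 4 and low 5. The group means were -0.31 ± 0.14 and 0.26 ± 0.10 (SD, n = 5 each), a difference of -0.57 on the log2 scale. The medians of 8685 genes on the other autosomes lay between -0.02 and 0.04 in the same libraries.

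The shift was graded within each group. High 5 was lowest, with 94.7% of the 550 genes below their own median, and high 4 had the smallest share among the high clones, with 75.3%. Among the low clones this share was lowest in low 2 (6.0%) and highest in low 5 (24.5%). The same genes supplied 3.80% to 4.88% of all counts in the high clones and 6.12% to 7.40% in the low clones, with means of 4.4% ± 0.42 and 6.75% ± 0.51 (SD, n = 5 each).

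**Figure D1:**
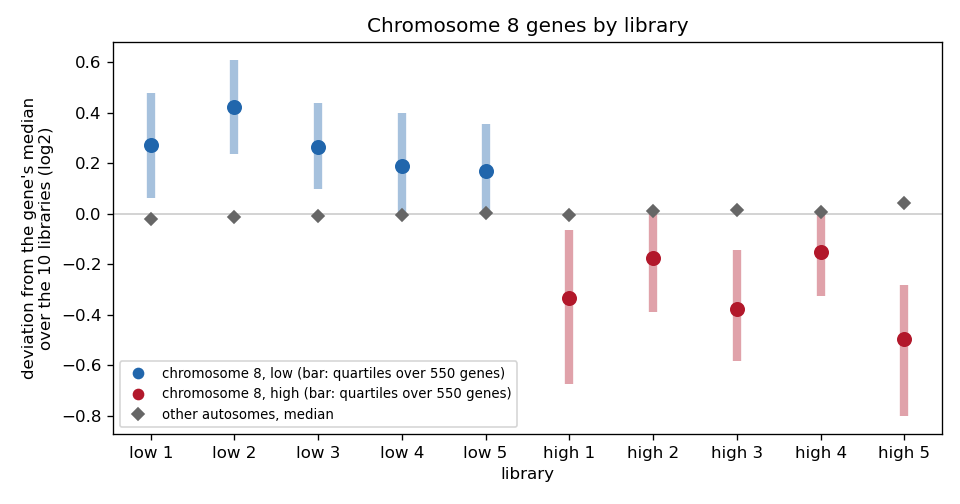
Median deviation of the 550 chromosome 8 genes in each library (circles, with bars from the lower to the upper quartile over genes) and of genes on the other autosomes (diamonds), on a log2 scale. The 5 high clones lie between -0.50 and -0.15 and the 5 low clones between 0.17 and 0.42, while the other autosomes stay near 0.

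Most of the genes took part. The median log2 fold change, high over low, was -0.60 (quartiles -0.78 and -0.43), so that the median gene stood in the high clones at 66.0% of its level in the low clones. Of the 550 genes, 527 were lower and 23 higher on average in the high clones. In 222 genes (40.4%) all 5 high values lay below all 5 low values, where 4.17% of all 12964 tested genes did so. In 0 genes did all 5 high values lie above, where 3% of all tested genes did so. These counts restate the contrast that chose the chromosome, and nothing is read from them.

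The plain edgeR quasi-likelihood test, with Benjamini-Hochberg adjustment over all tested genes, called 181 of the 550 (32.9%), where it called 4.86% of all tested genes. All 181 were lower, against 2.87% of all tested genes, and 0 were higher, against 1.99%. This is the contrast that chose the chromosome, so these calls are listed for completeness and nothing is read from them. At an unadjusted p under 0.05, 4 of the 550 were higher by edgeR, and all tested genes were not counted at that threshold. DESeq2 called 2 of the 550 as higher, where it called 685 of all 12964 tested genes as higher. Limma-voom called 0 of the 550 as higher, where it called 226 of all tested genes. The number called depended on single clones. Omitting high 3 left 65 (11.8%, against 1.76% of all tested genes), and omitting high 5 left 113 (20.5% against 3.27%). Of the low clones, omitting the first left 76, omitting the second 64, the third 76, the fourth 91 and the fifth 118. For the low clones these shares ran from 11.6% to 21.5%, against 1.80% to 2.82% of all tested genes. With low 2 and low 3 both omitted, 7 were called (1.27% against 0.414%). The shift itself was -0.51 to -0.60 when any 1 clone was left out.

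The shift was smaller in genes of low level. In 4 groups of rising mean level the median log2 fold change was -0.49 (8.01 to 29.2 CPM), -0.56 (29.2 to 60.6 CPM), -0.64 (60.9 to 118 CPM) and -0.65 (118 to 1684 CPM).  At the edge of the set, Zfp958 (mean 8.01 CPM) and Psd3 (8.62 CPM) were just inside, with fold changes of -0.46 and 0.46. Micu3 (7.81 CPM) and Pdpr (7.77 CPM) were just outside, with -0.97 and -0.29.

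Single genes also tended to follow the grading between the clones of a group. Across the 10 libraries the median correlation of a chromosome 8 gene with the chromosome's shift was r = 0.79, and 264 genes (48%) exceeded 0.8. For genes of the other autosomes the median was -0.08, and 1.17% exceeded 0.8. Within the 5 high clones alone the median was 0.46 for chromosome 8 genes and -0.06 for the others, and within the 5 low clones 0.42 and -0.01. These correlations are descriptions over 10 or 5 libraries, and genes share the libraries and their depth. The shift is the median of these same chromosome 8 genes, and over 10 libraries it holds the group difference that chose the chromosome. Genes of the other autosomes were set against the chromosome 8 shift and not that of their own chromosome, so the contrast with them is partly built in.

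The steadiest followers were Thap11, Abhd13, Pla2g15, Cc2d1a and Cdkn2aip, the 5 genes whose distance to the shift of each library varied least. Thap11, a zinc finger transcription factor needed in embryonic stem cells, stood at 43.3, 51.1, 48.1, 52.8 and 44.4 CPM in high 1 to high 5. It stood at 72.1, 75.7, 78.9, 61.7 and 65.1 CPM in low 1 to low 5. Its groups did not overlap, its log2 fold change was -0.56 (SE 0.12), and 0.01 was left of it once the shift was taken out. Cc2d1a, a scaffold protein of endosomal and immune signalling, had 112 ± 7.67 CPM in the high and 167 ± 21.9 CPM in the low clones (SD, n = 5 each). Abhd13 and Pla2g15, a lysosomal phospholipase, had fold changes of -0.66 and -0.53, and Cdkn2aip, a binding partner of the ARF tumour suppressor, of -0.66.

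The shift ran along the whole chromosome. In each of 13 windows of 10 Mb, holding 8 to 85 genes, the 5 high medians lay below the 5 low medians, and the difference between the group means ran from -0.73 to -0.46. In running windows of 15 consecutive genes the high mean was below the low mean in 536 of 536, and the groups did not overlap in 492 (91.8%). The smallest difference was that of the window from 110 to 120 Mb, and the largest that of the window from 50 to 60 Mb, which held only 8 genes. These counts restate the contrast that chose the chromosome, and neighbouring running windows share genes, so nothing is read from them.

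To ask whether the shift was even, the 275 genes nearer the centromere (Insr to Ddx39, starts up to 83715177) were set against the 275 farther genes (Adgre5 to 2610044O15Rik8). The median of the far genes minus that of the near genes came to 0.02 ± 0.06 for high clones and -0.04 ± 0.02 for low clones (SD, n = 5 each), on the log2 scale. The difference of 0.05 did not pass (two-sided exact permutation test, p = 0.111, where the smallest p possible is 0.00794). The call turned on single choices. With the division at the midpoint by position the difference was 0.09 and passed (p = 0.0159, same exact test). It also passed when any 1 of 8 clones was left out, with differences of 0.07 to 0.08 and p from 0.0159 to 0.0476 by the same exact test. With 1 clone left out the smallest p possible is 0.0159. It did not pass without high 4 (0.05, p = 0.111) or without high 5 (0.06, p = 0.127, same exact test).

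High 4 left the shift at the end of the chromosome. A search for the best single division of each library placed that of high 4 between Cmtr2, which encodes an mRNA cap methyltransferase and ends at 110224486, and Vac14, which encodes a scaffold of phosphoinositide synthesis and starts at 110618585. The 441 genes before this point had a median deviation of -0.22 in high 4, with 370 of them below 0 (83.9%). The remaining genes after it had a median of 0.02, with 44 below 0 (40.4%). The step of 0.24 compares with steps of -0.15 to 0.04 at the same place in the other 9 libraries.

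Genes of high and of low level gave nearly the same place. Among the genes above the median level the best division of high 4 was again before Vac14, and among those below it before Mtss1l, which starts at 110721476. These are neighbouring genes. In the other 9 libraries the places found at the upper and the lower level lay farther apart, the nearest being Atp13a1 (start 69791163) and Borcs8 (start 70139499) in low 4. Measured against the mean of the low clones, high 4 stood at -0.53 before and -0.17 after the point, a step of 0.37, where the other 4 high clones had steps of 0.00 to 0.17. The division was picked from the values, so it gets no test.

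High 4 weighs on the group difference at this end. Before the point the high mean minus the low mean was -0.59, and -0.62 without high 4. After it the difference was -0.47, and -0.55 without high 4. Thus these genes differed less between the groups also without high 4. The deviations of the low clones were lower there, at 0.13 to 0.15 in low 1, low 3, low 4 and low 5 and 0.34 in low 2. Those of high 1 and high 3 also fell, with steps of -0.08 and -0.11. Each deviation is taken from a median over 10 libraries that include high 4, so these falls depend on that reference. Against the mean of the low clones the steps were 0.00 in high 1, 0.10 in high 2, 0.01 in high 3 and 0.17 in high 5. Several genes of this stretch show high 4 within or near the low range. Aars, the alanyl-tRNA synthetase, stood at 426, 598, 602, 901 and 460 CPM in high 1 to high 5 and at 904, 871, 1094, 1056 and 947 CPM in low 1 to low 5. High 4 was the only high clone inside the low range there. Kars, the lysyl-tRNA synthetase, stood at 394 CPM in high 4, against 208 to 310 CPM in the other high clones and 346 to 570 CPM in the low clones.

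**Figure D2:**
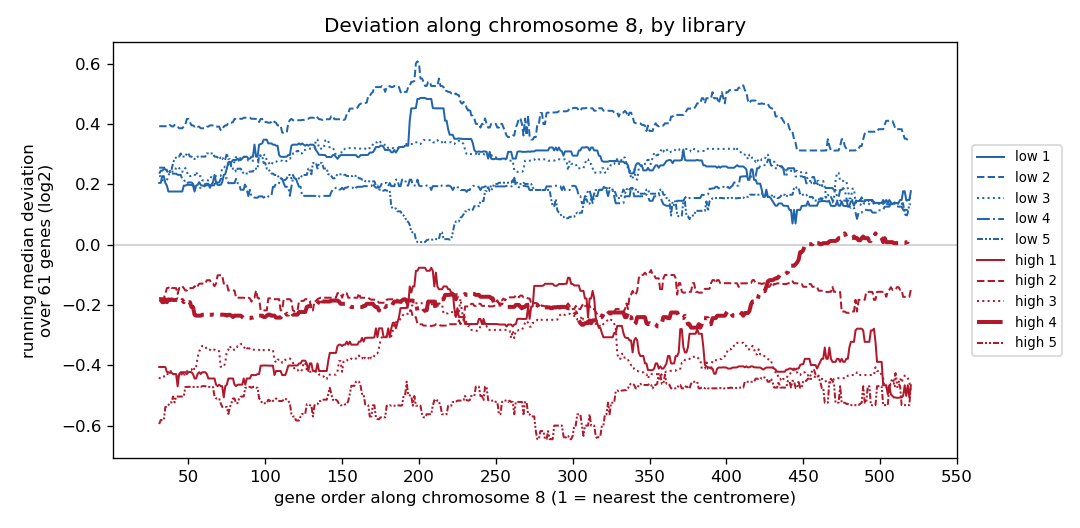
Running median deviation over 61 consecutive genes against gene order along chromosome 8 for each library, on a log2 scale. High clones stay below low clones along the order, and the thick line of high 4 climbs from about -0.2 to about 0 near the far end.

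**Figure D3:**
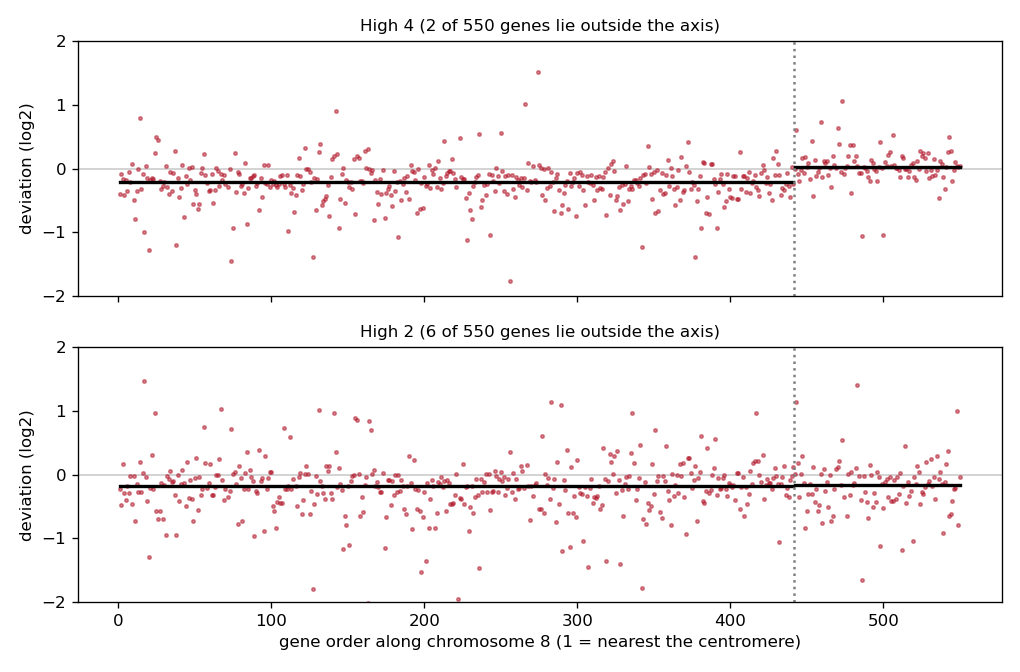
Deviation of each of the 550 genes in high 4 (top) and in high 2 (bottom), the high clone nearest to it in overall shift, against gene order, on a log2 axis cut at -2 and 2. The black lines are the medians before and after the division found in high 4, -0.22 and 0.02 in high 4 and -0.18 and -0.16 in high 2.

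Base composition moved with the profile of one low clone. In low 5 the distance of a gene to the shift had a rank correlation of -0.39 with the GC content of its transcripts over the 550 genes, and on 8685 genes of the other autosomes the same correlation was -0.31. In the other 9 libraries it lay between -0.08 and 0.23 for chromosome 8. The window from 70 to 80 Mb, with the highest median GC content (56.0%), had a median of 0.10 in low 5, against 0.17 over the chromosome. The part of base composition in the dip was not tested.

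Few genes left the shift in a way that the replicates resolve. When the shift of each library and chromosome was entered as an offset, the median log2 fold change of the 550 genes was -0.04 (quartiles -0.22 and 0.14). Of these, 482 genes (87.6%) lay within 0.5 of the shift, where 84.1% of expressed genes on the other autosomes lay within 0.5 of theirs. Beyond 1 log2 unit were 27 genes (4.91%), against 5.28% on the other autosomes. The edgeR quasi-likelihood test called 5 of the 550 genes (0.909%) against a background of 1.24% of all tested genes, a share near the background. Lower than the shift were Efnb2, Prag1 and Asah1 (0.594% of all tested genes were called in that direction), and higher were Acsl1 and Cotl1 (0.648%). After the same offset DESeq2 called 39 (16 higher, 23 lower), 7.09% of the 550 against 7.60% of all tested genes, and limma-voom called 6, 1.09% against 1.69%. At an unadjusted p under 0.05 edgeR had 88 of the 550 (16%) against 17.6% of all tested genes. An offset taken from the 61 nearest genes left 2 (0.364%, against 1.12% of all tested genes), Efnb2 and Acsl1. The edgeR count was 9 when high 1 was omitted (1.64% against 2.35%) and 2 when low 5 was (0.364% against 0.713%). It was 1 (0.182%) when any of high 2, high 3 and low 1 to low 4 was, against 0.427% to 0.653%. With low 2 and low 3 both omitted it was 0, against 0.178%, and no other tool was run. In that fit 58 of the 550 had an unadjusted p under 0.05 by edgeR. All tested genes were not counted at that threshold there, so nothing is read from the 58. With the shift taken out, the groups did not overlap in 31 genes (5.64%), against 5.03% of all tested genes.

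Efnb2 (ENSMUSG00000001300, chromosome 8, 8617434 to 8661242, minus strand, GRCm38) encodes ephrin-B2, a membrane-bound ligand of Eph receptors in cell guidance and vessel growth. It stood at 20.2, 19.2, 8.70, 19.3 and 28 CPM in high 1 to high 5 and at 84.0, 88.2, 79.3, 102 and 114 CPM in low 1 to low 5. Every high value lay far below every low value. The log2 fold change was -2.29, and -1.72 of it (SE 0.28, adjusted p = 0.0214, edgeR quasi-likelihood test) went beyond the shift. The call held in 8 of 10 fits that left out 1 clone, with adjusted p = 0.0558 without high 2 and 0.0506 without low 4.

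Prag1 (ENSMUSG00000050271, 36094828 to 36147787, plus strand) encodes a pseudokinase that acts in tyrosine kinase signalling. It stood at 4.83, 8.17, 2.91, 4.65 and 2.33 CPM in the high and at 21.3, 17.4, 26.1, 21.7 and 10.5 CPM in the low clones, in replicate order. The groups did not overlap, on 549 and 1963 counts in all. With the shift taken out, high 2 and low 5 nearly met, at distances to the shift of 1.3e-04 and 0.007. It went beyond the shift by -1.55 (SE 0.32, adjusted p = 0.0491, edgeR). The call held without high 2 and without low 5, and in the other 8 fits that left out 1 clone the adjusted p was 0.0503 to 0.101.

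Asah1 (ENSMUSG00000031591, 41340197 to 41374773, minus strand) encodes acid ceramidase, the lysosomal enzyme that splits ceramide. It stood at 190, 160, 157, 193 and 149 CPM in the high and at 402, 438, 371, 309 and 436 CPM in the low clones. The groups were far apart and each was narrow, so that a modest excess of -0.63 over the shift was resolved (SE 0.12, adjusted p = 0.0395, edgeR). The call held without high 1, high 4 or low 4, and in the other 7 fits the adjusted p was 0.0643 to 0.0905.

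Acsl1 (ENSMUSG00000018796, 46471037 to 46536051, plus strand) encodes a long-chain acyl-CoA synthetase that activates fatty acids. It stood at 25.8, 74.8, 48.8, 44.4 and 47.9 CPM in the high and at 23.4, 37.9, 33, 28.7 and 36.2 CPM in the low clones. High 1 lay within the low range and the other 4 high clones above it, so the gene was not reduced with its chromosome. Its log2 fold change was 0.60 without the offset, which was not called (adjusted p = 0.183, plain edgeR test). Relative to the shift it was 1.17 (SE 0.24, adjusted p = 0.0449, edgeR). The call held without high 1 or high 4, and in the other 8 fits the adjusted p was 0.0626 to 0.102.

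Cotl1 (ENSMUSG00000031827, 119809222 to 119840544, minus strand) encodes a coactosin-like protein that binds actin filaments. It stood at 44.8, 65.7, 44, 25.5 and 23.4 CPM in the high and at 31.9, 17, 12.4, 17.6 and 23.8 CPM in the low clones. High 4 and high 5 overlapped the low range, and high 1 to high 3 lay above it. Its log2 fold change was 0.99 without the offset, which was not called (adjusted p = 0.103, plain edgeR test). Relative to the shift it was higher by 1.53 (SE 0.32, adjusted p = 0.0496, edgeR). The call held without high 4 or high 5, and in the other 8 fits the adjusted p was 0.0574 to 0.111.

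**Figure D4:**
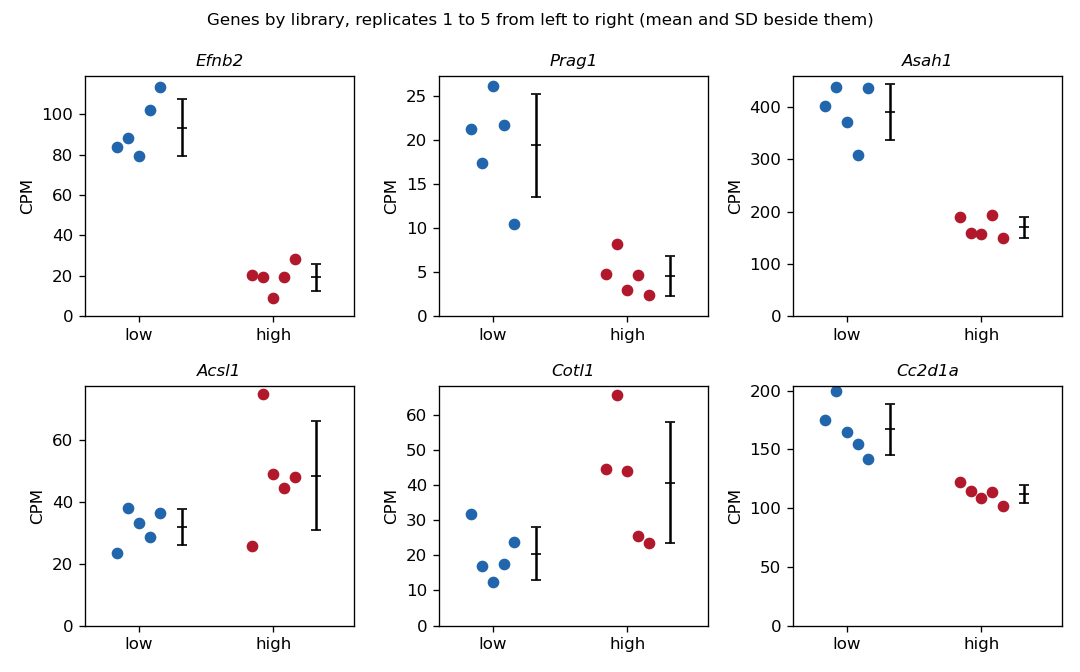
CPM of the 5 genes called relative to the shift and of Cc2d1a, a steady follower, in low and high clones, with replicates 1 to 5 from left to right and the mean and SD beside them. Efnb2 and Asah1 separate the groups widely, and Prag1 separates them narrowly, with high 2 at 8.17 and low 5 at 10.5 CPM. Acsl1 and Cotl1 were higher on average in the high clones, and Cc2d1a shows the size of the common shift.

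Other genes stood away from the shift without passing the edgeR test. Neto2, an auxiliary subunit of kainate receptors, stood at 0.41, 3.44, 0.04, 5.37 and 0.40 CPM in the high and at 29, 19.3, 28.3, 14.9 and 19.98 CPM in the low clones. Its groups did not overlap, but its high values spread widely, and its change relative to the shift of -3.07 had an adjusted p of 0.103 by edgeR, 0.0028 by DESeq2 and 0.0362 by limma-voom. Herpud1, a membrane protein of endoplasmic reticulum stress, was at -1.03 relative to the shift (adjusted p = 0.0632 by edgeR, 0.00255 by DESeq2 and 0.068 by limma-voom). Gcdh, the mitochondrial glutaryl-CoA dehydrogenase, was at 0.43 (adjusted p = 0.0631 by edgeR, 0.000592 by DESeq2 and 0.0655 by limma-voom).

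**Figure D5:**
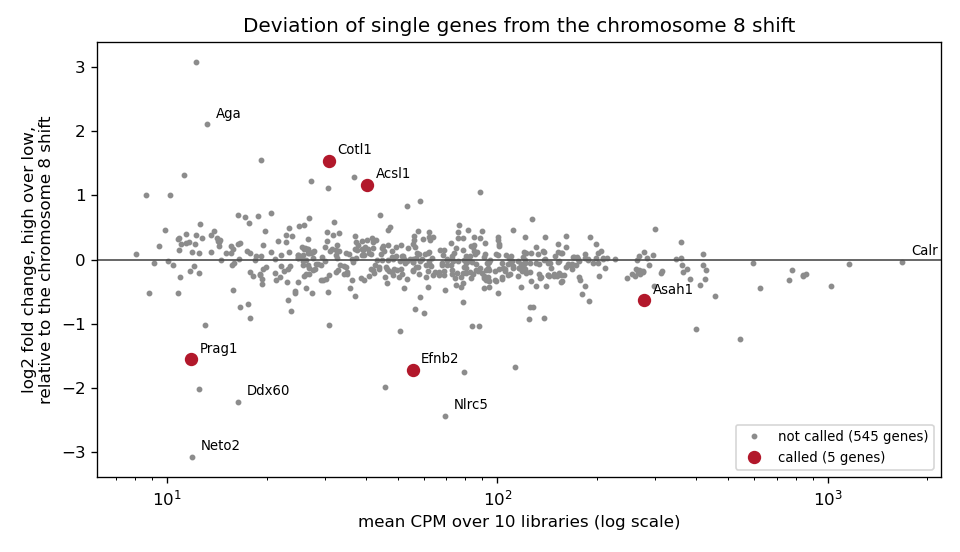
Log2 fold change, high over low, relative to the chromosome 8 shift for each of the 550 genes, against mean CPM on a log axis. The 5 called genes are marked, and the others lie mostly within 0.5 of 0, with the spread widest at low levels.

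The functional lists are described by their median log2 fold change, which restates the contrast that chose the chromosome, and by the edgeR test relative to the shift. Mitochondrial proteins encoded on chromosome 8 kept close to it. All 24 genes of this list were lower in the high clones on average, with a median of -0.55 against -0.60 for the 550 genes, and a median of 0.02 relative to the shift. Relative to the shift edgeR called 0 (4 at an unadjusted p under 0.05, 3 by DESeq2, 0 by limma-voom). Slc25a4, the ADP/ATP carrier of the inner membrane, stood at 623, 683, 648, 754 and 413 CPM in the high and at 1059, 945, 1088, 1078 and 1202 CPM in the low clones. Its groups did not overlap, and its change relative to the shift was -0.24 (adjusted p = 0.427, edgeR). Fkbp8, an outer membrane protein that recruits the autophagy machinery, was at -0.30 relative to the shift (adjusted p = 0.210), and Cox4i1, a subunit of cytochrome c oxidase, at -0.25 (adjusted p = 0.517). Timm44, part of the protein import motor, was at -0.32 (adjusted p = 0.147 by edgeR and 0.0404 by DESeq2).

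Core complexes and the tRNA machinery were also lower throughout. All 21 genes for ribosome, proteasome and other core complexes were lower on average in the high clones, with a median of -0.63, and of -0.09 relative to the shift. Rpl13, a protein of the large ribosomal subunit, had 630 ± 206 CPM in the high and 1099 ± 405 CPM in the low clones (SD, n = 5 each), and -0.22 relative to the shift (adjusted p = 0.764, edgeR). Ribosomal protein genes have many near-identical pseudogenes, so their counts are uncertain to that extent. All 8 genes for tRNA synthetases and tRNA modification were lower, with a median of -0.71, and of -0.17 relative to the shift. These include Farsa, a subunit of phenylalanyl-tRNA synthetase, at -0.21 relative to the shift (adjusted p = 0.462), and Cars2, the mitochondrial cysteinyl-tRNA synthetase, at -0.56 (adjusted p = 0.0623, both edgeR). DESeq2 called Cars2. Relative to the shift edgeR called 0 in both lists (3 and 1 at an unadjusted p under 0.05, 3 and 1 by DESeq2, 0 and 0 by limma-voom).

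Regulators of transcription and of the cell cycle had medians close to that of the chromosome. All 22 transcription and chromatin genes were lower on average (median -0.64, and -0.07 relative to the shift). Hmgb2, a chromatin protein of dividing cells, had 290 ± 69.7 CPM in the high and 632 ± 82.3 CPM in the low clones (SD, n = 5 each), and -0.57 relative to the shift (adjusted p = 0.115 by edgeR and 0.0215 by DESeq2). The immediate early genes Junb and Jund varied widely within groups. Junb ran from 114 to 591 CPM in the high and from 96.9 to 907 CPM in the low clones, and it overlaps Prdx2. Of 24 genes of the cell cycle, replication and repair, 23 were lower (median -0.63, and -0.06 relative to the shift). Orc6, a subunit of the origin recognition complex, was at -0.34 relative to the shift (adjusted p = 0.142 by edgeR, called by DESeq2), and Cdt1, which licenses replication origins, at -0.26 (adjusted p = 0.507, edgeR). Relative to the shift edgeR called 0 in both lists (3 and 5 at an unadjusted p under 0.05, 2 and 4 by DESeq2, 0 and 0 by limma-voom).

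The redox and stress list had the lowest median of the 9 lists, -0.77, and a median of -0.22 relative to the shift. All 19 genes were lower on average, and relative to the shift edgeR called 0 (4 at an unadjusted p under 0.05, 2 by DESeq2, 0 by limma-voom). Gsr, glutathione reductase, was at -0.54 relative to the shift (adjusted p = 0.0841), and Egln1, an oxygen-sensing prolyl hydroxylase, at -0.73 (adjusted p = 0.178, both edgeR). DESeq2 called Gsr. Calr, the calcium-binding chaperone calreticulin, stood at 1470, 1172, 1700, 1533 and 879 CPM in the high and at 2081, 1864, 2101, 2156 and 2018 CPM in the low clones. Its groups did not overlap, and its change relative to the shift was -0.04 (adjusted p = 0.936, edgeR). Nqo1, a quinone reductase that is not in the list, was at 1.05 relative to the shift (adjusted p = 0.142 by edgeR, called by DESeq2).

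The called genes that belonged to a list were in those for the cell surface, signalling and metabolism. In the matrix and secreted list 11 of 13 genes were lower on average (median -0.59), and relative to the shift edgeR called 1, Efnb2. Col4a1, a chain of basement membrane collagen, had 468 ± 176 CPM in the high and 728 ± 226 CPM in the low clones (SD, n = 5 each), and -0.06 relative to the shift (adjusted p = 0.929, edgeR). The chemokine gene Cx3cl1 was at 1.54 (adjusted p = 0.207, edgeR). In the signalling and cytoskeleton list 17 of 18 genes were lower (median -0.50), and 1 was called, Cotl1. Tpm4, a tropomyosin, was at -0.44 relative to the shift (adjusted p = 0.139), and Bcar1, an adaptor of focal adhesions, at -0.19 (adjusted p = 0.526, both edgeR). By DESeq2 Tpm4 had an adjusted p of 0.0430. In the lysosome, lipid and metabolism list 14 of 16 were lower (median -0.65), and 2 were called, Asah1 and Acsl1. There Msmo1, an enzyme of cholesterol synthesis, was at -0.73 (adjusted p = 0.111), and Galns, a lysosomal sulfatase, at 0.65 (adjusted p = 0.0821, both edgeR). DESeq2 called Msmo1 and Galns. The called Prag1 is in none of the lists. At an unadjusted p under 0.05 these lists had 3, 5 and 6 genes by edgeR. DESeq2 called 1, 3 and 4, and limma-voom 1, 1 and 1. With 1 or 2 calls a list, where edgeR called 1.24% of all tested genes, nothing is read from where the calls fell.

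Bst2, Ddx60, Nlrc5, Psmb10 and Tlr3, which interferons are known to induce, varied widely between clones. These 5 genes were chosen after their values were seen and stand for no list, and edgeR called 0 of them relative to the shift (3 at an unadjusted p under 0.05, 0 by limma-voom). Irf2, an interferon regulatory factor gene whose promoter also matched the response element, was at -0.08 relative to the shift (adjusted p = 0.891, edgeR). Bst2 stood at 310, 249, 189, 447 and 76.8 CPM in the high and at 331, 848, 1092, 1887 and 135 CPM in the low clones. Low 4 was highest, low 1 lay within the high range, and low 5 lay below 4 of the 5 high clones. Ddx60 stood at 3.71, 11.0, 0.76, 6.96 and 0.47 CPM in the high and at 5.30, 25.8, 33.3, 80.0 and 1.58 CPM in the low clones. Nlrc5, the transactivator of class I antigen presentation genes, ran from 2.38 to 37.5 CPM in the high and from 23.1 to 253 CPM in the low clones, and Psmb10, a catalytic subunit of the immunoproteasome, from 19.9 to 69.1 and from 48 to 382 CPM. Tlr3, the sensor of double-stranded RNA, ran from 6.85 to 21.1 and from 20.2 to 197 CPM. Relative to the shift they were at -1.24 (Bst2), -2.21 (Ddx60), -2.43 (Nlrc5), -1.67 (Psmb10) and -1.98 (Tlr3), with adjusted p from 0.116 to 0.330 by edgeR, while DESeq2 called Nlrc5, Psmb10 and Tlr3. In each of the 5 genes low 4 was the highest of the 10 libraries.

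Some genes stood far from the shift in single clones. Aga, a lysosomal amidase of glycoprotein breakdown, had 0 counts in low 1, which allows up to 0.173 CPM, and 2.80 to 12.6 CPM in the other low and 9.92 to 28.8 CPM in the high clones. With the shift taken out, every high value of Aga also lay above every low value (2.10 relative to the shift, adjusted p = 0.223, edgeR). Tbc1d9, which carries a RabGAP domain, had 4 counts (0.17 CPM) in high 2 and 2.23 to 36.0 CPM elsewhere. Cers4, a ceramide synthase, had 1 count in low 2 and stood at 0.05 CPM in low 3 and 0.30 CPM in high 5, but at 3.66 to 30.9 CPM in the other 7 clones.

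Others were low in several high clones at once. Adgra2, an adhesion receptor of brain vessel growth, stood at 3.96, 87.4, 4.58, 42.9 and 1.13 CPM in the high and at 51.4 to 235 CPM in the low clones. High 1, high 3 and high 5 were far below the rest. Zdhhc2, a palmitoyltransferase, stood at 0.77 CPM in high 2, 4.47 to 22.5 CPM in the other high and 16.5 to 41.8 CPM in the low clones. Gdf15, a stress-induced cytokine, was low in a low clone, with 0.65 CPM in low 5 against 23.0 to 45.0 CPM in the other low and 6.75 to 40.6 CPM in the high clones.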

How the data were processed

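The authors deposited whole read counts per Ensembl gene, 1 column per library, and a normalized signal table, which the authors made by dividing each library's counts by 1 size factor (checked on the files) and which was not used further. STAR 2.7.8a, DESeq2 1.36.0, R 4.2.1 and GRCm38 are listed in the submitters' processing notes without their roles. Which program counted reads, with which strand option and gene models, was not given in the sources used here. Library preparation was directional per the labels' protocols. GENCODE M21 placed 26206 of 26401 identifiers.

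Levels are CPM with TMM scaling. Log2 values have a prior count of 2. Counts were tested in edgeR 4.0.16 (R 4.3.3) by robust quasi-likelihood with the default filter, group as the only term and Benjamini-Hochberg adjustment over 12964 genes at 0.05, two-sided. The test without an offset is called the plain test. The test relative to the shift adds, per library and chromosome, the median deviation of genes at 8 CPM or more. Alternatives were RLE scaling, other filters and member levels, DESeq2 1.42.0, limma-voom 3.58.1, a replicate block, other offsets and each library left out, and, chosen after seeing the data, a local offset, the low mean as reference and leaving out low 2 and low 3. On simulated counts for the 12964 genes the test relative to the shift found 55% of the 2-fold changes and 95% of the 4-fold ones. Falsely called were 0.0627% of the unchanged genes, and 0.196% of the 510 unchanged genes among the chromosome 8 members. The simulation shifted chromosome 8 alone and held no effect of base composition, so error rates in the real libraries may differ.

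Genes named are those called relative to the shift, 3 per list with the highest mean CPM, 8 that stand apart in 1 library, the 2 on each side of the level minimum, the 5 steadiest and called members of lists. Neto2, Herpud1, Gcdh, Nqo1, Cx3cl1, Galns and the interferon-related genes were otherwise chosen after their values were seen. Of the genes this rule selects, 2 are not reported here one by one. The members, lists and rule were chosen with earlier results of these data known. The labels name the libraries biological replicates. Whether replicate numbers pair libraries across groups cannot be told from the check that was run. Same-numbered libraries' deviations from their group means correlated at 0.46, -0.05, 0.03, 0.07 and 0.16 for replicates 1 to 5. Libraries of different numbers were not compared.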

Additional observations from a re-analysis of the deposited data

Results flagged for a closer look

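In each group of 5 clones the highest and lowest values of the chromosome's summaries and of the named genes were checked for a gap to the next clone of more than 0.71 of the group's range. Of 100 such group checks 7 were flagged, and chance alone flags about 1 in 20 groups. The gene values are distances to the shift of the library, on the log2 scale. The median of the genes beyond Cmtr2 was 0.344 in low 2 and 0.126 to 0.154 in the other low clones. Gdf15 was at -4.90 in low 5, against -0.19 to 0.93 in the other low clones. Lamp1, a lysosomal membrane protein, was at -0.484 in low 4, against 0.20 to 0.46. Zfp958 was at -0.358 in low 1, against -0.03 to 0.10, and Cdkn2aip was at 0.285 in low 3, against -0.04 to 0.05. Slc25a4 was at -0.534 in high 5, against -0.13 to -0.01 in the other high clones, and Rpl13 was at -1.01 in high 2, against -0.04 to 0.36.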

How the results depend on the processing

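The difference in shift between the groups stayed negative and moved by less than 1 SD under every alternative run (-0.60 to -0.51 with 1 library left out). The count of 181 called by the plain test was 110 with no filter, 287 by DESeq2 and 7 without low 2 and low 3, and 64 to 193 with 1 library left out. The share of all tested genes called moved too. It was 4.86% in the main fit, 2.12% with no filter, 11.4% by DESeq2 and 0.414% without low 2 and low 3. With 1 library left out it was 1.76% to 6.25%, and 0.427% to 2.35% relative to the shift. The count of 5 called relative to the shift was 39 by DESeq2, 2 with the local offset and 1 to 9 with 1 library left out (9 without high 1; 1 without high 2, high 3 or low 1 to low 4). It was 0 by edgeR without low 2 and low 3, and no other tool was run there. In that fit 58 had an unadjusted p under 0.05, without a count of all tested genes at that threshold. The far minus near difference of 0.05 became 0.0887 with the midpoint by position as the division, 0.0806 without low 2 and low 3 and 0.0707 against the low mean, and each passed the exact test; with 1 library left out it was 0.0456 to 0.0819. The replicate number was also entered as a block, a pairing that was not established. Then 176 were called by the plain test and 5 relative to the shift, of which Efnb2 and Acsl1 were among the 5 above. Among single genes no called change reversed direction. Genes near the minimum of 8 CPM, with few counts per library, limit how small a departure from the shift can be resolved, and 5 clones a group limit the calls, as their loss with 1 library shows.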
